A study of Homo sapiens with 14 samples.

Results

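The expression of 10 genes of the Wnt signalling pathway was followed in 14 RNA sequencing libraries from the human embryonic stem cell line MEL1. The members were the secreted antagonists SFRP1, SFRP2, SFRP5, FRZB and DKK1 and the target or feedback genes AXIN2, LEF1, SP5, LGR5 and RNF43. They are 10 of the 60624 genes listed in each library. The genes were chosen by their measured levels across the groups, above all that of SFRP5 in expandable pancreatic progenitors (ePPs) against the β-like cells made from them. That comparison is therefore given as a description with no test.

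The 14 libraries fell into 9 groups and 3 batches named in the labels. In batch 1, 1 library each came from undifferentiated cells (hPSC), definitive endoderm (DE), pancreatic progenitors made by stepwise differentiation (PP2) and β-like cells made without an expansion step (SC-β). In batch 2, 2 libraries each came from ePPs at passage 9 (ePP-P9) and passage 21 (ePP-P21) and from ePP-derived β-like cells (ePP-β). In batch 3, 2 libraries each came from pancreatic progenitors kept for 7 days with I-BET151 at 1 μM or its solvent DMSO. I-BET151 inhibits bromodomain proteins of the BET family. Every group is labelled with the MEL1 background, a single line, and the MEL1 line that the methods of the study name is MEL1 INS GFP/W, in which 1 INS allele carries a GFP reporter. By the same methods the ePPs were grown on feeder cells in a medium with EGF, bFGF, the TGFβ inhibitor 616452 and 1 μM I-BET151, so the ePP groups carry the inhibitor as well. The DMSO and I-BET151 cells had the same basal medium of EGF, bFGF and 616452. The media listed for making β-like cells name no I-BET151 and instead hold, among others, 616452, T3, LDN-193189, Compound E and forskolin. On the first day of differentiation the stem cells received CHIR99021, a GSK3 inhibitor that activates β-catenin. Feeder cells also carried the hPSCs. Reads from feeder cells were not separated here.

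Values are TPM, the share of a library that a gene takes up after correction for transcript length, so levels can be compared between genes. Between 14982 and 17578 genes per library reached 1 TPM. Read depth is unknown. A marker of each stage was high there, with 3401 TPM of POU5F1 in hPSC, 1140 TPM of SOX17 in DE, 251 TPM of PDX1 in PP2 and high INS in ePP-β and SC-β. NANOG was highest in hPSC too, at 52.8 TPM, but LIN28A was at 460 TPM in hPSC and 625 TPM in DE. DE still held 389 TPM of POU5F1. Neither other endoderm marker peaked in DE. CXCR4 was at 105 TPM in DE against 147 and 226 TPM in ePP-β, and FOXA2 at 82.4 TPM in DE against 201 TPM in PP2. The progenitor marker NKX6-1 was lower in PP2, at 23.5 TPM, than in the ePPs, at 176 to 213 TPM. GCG, the hormone of alpha cells, was at 14107 and 13360 TPM in ePP-β beside 10916 and 17374 TPM of INS, and at 74281 TPM in SC-β beside 20657 TPM of INS. The labels do not say whether replicates were separate cultures, so the p-values measure only the spread between these libraries, which may be technical. Fewer expressing cells and less RNA per cell cannot be told apart in such bulk samples.

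Wnt ligands bind Frizzled receptors and the co-receptors LRP5 and LRP6. The signal stops the destruction complex of APC, AXIN and GSK3 from marking β-catenin for breakdown, and β-catenin then activates genes together with factors of the TCF and LEF family. Secreted frizzled-related proteins (the SFRP genes and FRZB) bind Wnt ligands outside the cell, and DKK1 blocks the LRP co-receptors. AXIN2 and RNF43 are induced by the signal and dampen it, AXIN2 as a scaffold of the destruction complex and RNF43 as a ubiquitin ligase that removes Frizzled from the surface. LEF1 and SP5 are transcription factors, and LGR5 is a receptor for R-spondins, which act against RNF43. Wnt signalling patterns the gut tube, and in vertebrate embryos Sfrp5 is expressed in the ventral foregut endoderm.

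SFRP5 (ENSG00000120057, chromosome 10, 97766751 to 97771999, minus strand, GRCh38) was the antagonist of the progenitor stages. It was at 4.70 TPM in hPSC, at 0.183 TPM in DE and at 276 TPM in PP2. In the ePPs it stood at 567 and 587 TPM at passage 9 and at 690.4 and 633 TPM at passage 21. These levels ranked it between 172nd and 211th among all listed genes of a library. SFRP5 made up 94.2% to 95.0% of the summed TPM of the 5 antagonists in the ePP libraries and 65.5% in PP2. Its share was 81.3% to 96.2% in the DMSO and I-BET151 libraries, so SFRP5 led the 5 antagonists in every progenitor group.

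In ePP-β, SFRP5 was at 25.5 and 21.2 TPM. All 4 ePP libraries lay far above both ePP-β libraries, at 619 ± 54.8 TPM (SD, n = 4) against 23.3 ± 3.08 TPM (SD, n = 2), a ratio of 26.5. On the log2(TPM + 1) scale the difference was -4.67. The SC-β library, made without the ePP stage and in another batch, held 41.2 TPM, below its own progenitor stage PP2. Ordered by group mean, SFRP5 fell in the sequence ePP-P21, ePP-P9, I-BET151, PP2, DMSO, SC-β, ePP-β, hPSC and DE. PP2 lay between the 2 I-BET151 libraries, and no other neighbours in that order overlapped. Groups of different batches are set side by side without a test, since batch and group cannot be told apart there.

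**Figure D1:**
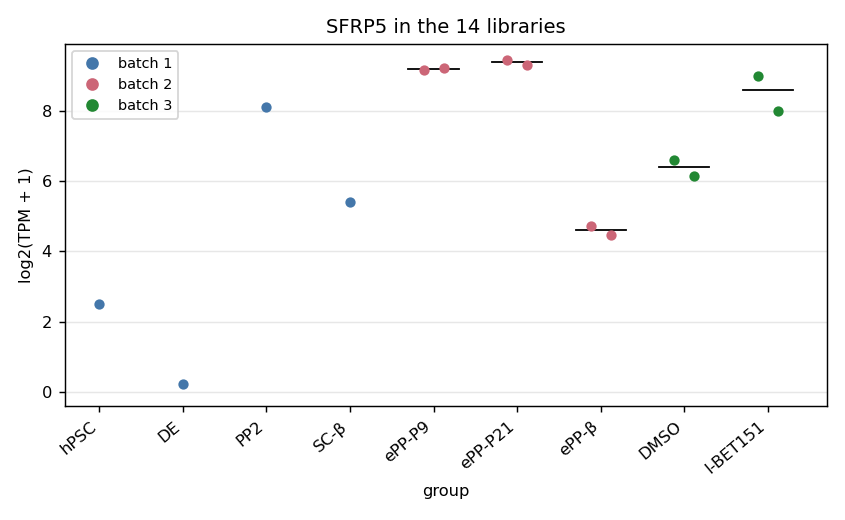
SFRP5 in each library as log2(TPM + 1), with groups along the horizontal axis, points coloured by batch and bars at the group mean where there are 2 libraries. The ePP libraries sit between 567 and 690.4 TPM, and both ePP-β libraries sit at 25.5 TPM or less.

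The genes whose profile was most like that of SFRP5 were sought among 12038 other protein-coding genes that reached 10 TPM in at least 1 library. Over the 14 libraries, the Pearson correlation of log2(TPM + 1) with SFRP5 was 0.95 for QSOX1, 0.94 for PSAP and LIPG, and 0.94 for ONECUT1 and ALDH5A1. ONECUT1, a transcription factor of pancreatic progenitors, averaged 12.4 TPM at passage 9, 25.96 TPM at passage 21 and 1.58 TPM in ePP-β. At the other end stood KIAA0040 (-0.96), BHLHE40 (-0.94), OSTF1 (-0.94), the unnamed gene ENSG00000266076 (-0.93) and IFITM1 (-0.93). ENSG00000266076 overlaps AXIN2 on the same strand. Among the members themselves AXIN2 had the lowest correlation with SFRP5 (r = -0.88). The points share libraries, batches and groups, so these values only describe the profiles.

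AXIN2 and RNF43 ran the other way between ePP and ePP-β. AXIN2 (ENSG00000168646, chromosome 17, 65528563 to 65561648, minus strand) was at 0.497 and 0.620 TPM at passage 9 and at 0.453 and 0.763 TPM at passage 21, whereas the ePP-β libraries held 4.84 and 4.32 TPM. RNF43 (ENSG00000108375, chromosome 17, 58353676 to 58417595, minus strand) was at 0.677 and 0.517 TPM at passage 9 and at 0.846 and 0.624 TPM at passage 21, whereas the ePP-β libraries held 4.33 and 4.21 TPM. The ratios of the ePP-β mean to the ePP mean were 7.85 for AXIN2 and 6.41 for RNF43, and the groups did not overlap for either gene. The ePP means in these ratios lie below 1 TPM, where the depth behind a value is unknown.

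The 4 ePP libraries held the lowest AXIN2 and RNF43 levels of all 14. AXIN2 was at 10.6 TPM in hPSC, 23.0 TPM in DE, 6.97 TPM in PP2 and 9.71 TPM in SC-β, and between 1.85 and 3.67 TPM in the DMSO and I-BET151 libraries. RNF43 was at 4.04 TPM in hPSC, 1.43 TPM in DE, 9.46 TPM in PP2 and 5.86 TPM in SC-β, and between 2.09 and 10.1 TPM in the DMSO and I-BET151 libraries. Both genes overlap another listed protein-coding gene on the same strand, and reads from the shared part cannot be told apart. ENSG00000266076 at the AXIN2 locus was at 1.30 to 1.72 TPM in the ePPs and at 4.72 and 4.89 TPM in ePP-β, and ENSG00000285897 at the RNF43 locus was at 20.9 to 23.4 TPM in the ePPs and at 28.2 and 31.4 TPM in ePP-β.

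The other target genes stayed below 1 TPM throughout batches 2 and 3. SP5 (ENSG00000204335, chromosome 2, 170715337 to 170718078, plus strand) ranged from a listed 0 to 0.151 TPM in the ePPs and was at 0.301 and 0.644 TPM in ePP-β. LGR5 (ENSG00000139292, chromosome 12, 71439798 to 71586310, plus strand) was at 0.0416 TPM or less in the ePPs and at 0.0783 and 0.145 TPM in ePP-β. LEF1 (ENSG00000138795, chromosome 4, 108047545 to 108168956, minus strand) ranged from 0.0946 to 0.485 TPM in the ePPs and was at 0.0786 and 0.0403 TPM in ePP-β. No ratio is given for these genes, since both groups lay below 1 TPM. LGR5 overlaps TSPAN8 on the other strand, which was at 490.0 and 595 TPM in DMSO, and the use of strand in counting is not stated.

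Both ePP-β libraries lay above every ePP library for 5 of the 10 members and below every ePP library for 4, and SFRP2 overlapped at values near 0. Among the 18076 genes that passed the filter of this comparison, 32.2% lay wholly above and 31.6% wholly below. SP5 and LGR5 (above) and LEF1 (below) are counted among the members but did not pass that filter. Nothing is read from the count of members, since the list was put forward with this comparison in view. The other antagonists moved less than SFRP5. SFRP1 (ENSG00000104332, chromosome 8, 41261962 to 41309473, minus strand) averaged 18.1 ± 1.69 TPM (SD, n = 4) in the ePPs and 32.8 ± 3.801 TPM (SD, n = 2) in ePP-β. FRZB (ENSG00000162998, chromosome 2, 182833275 to 182866637, minus strand) averaged 13.7 ± 1.79 TPM and 9.78 ± 0.516 TPM. DKK1 (ENSG00000107984, chromosome 10, 52314281 to 52318042, plus strand) averaged 3.46 ± 0.746 TPM and 0.694 ± 0.381 TPM. SFRP2 (ENSG00000145423, chromosome 4, 153780591 to 153789083, minus strand) was listed at 0 in both ePP-β libraries and in 3 of the 4 ePP libraries, with 0.0528 TPM in the remaining library.

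**Figure D2:**
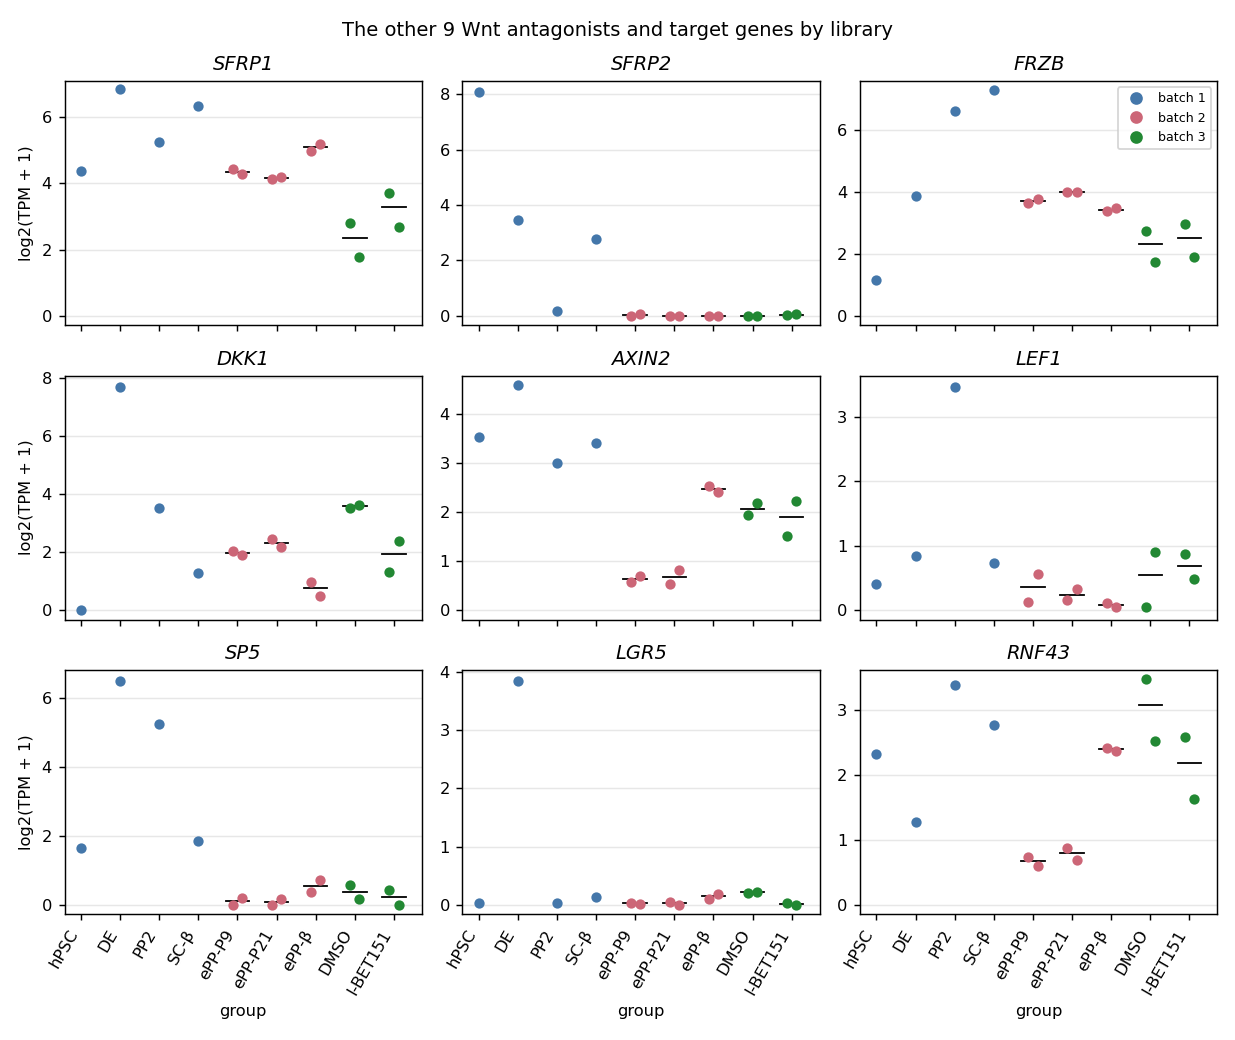
The other 9 genes in each library as log2(TPM + 1), 1 panel per gene with its own vertical scale, groups along the horizontal axis, points coloured by batch and bars at the mean of groups with 2 libraries. AXIN2 and RNF43 are lowest in the 4 ePP libraries, while DKK1, SP5 and LGR5 peak in the DE library.

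The DE library stood apart in some of its antagonists and targets. DKK1 was at 0.0180 TPM in hPSC, 207 TPM in DE and 10.4 TPM in PP2. SP5 was at 2.16 TPM in hPSC, 88.4 TPM in DE and 36.9 TPM in PP2. LGR5 was at 0.0187 TPM in hPSC, 13.3 TPM in DE and 0.0201 TPM in PP2. The DE values of DKK1, SP5 and LGR5 were the highest of the 14 libraries. SFRP1 and AXIN2 were highest in DE too, SFRP1 at 112 TPM. SFRP5 had its lowest value there. The targets RNF43 and LEF1 were lower in DE than in PP2, at 1.43 against 9.46 TPM and at 0.790 against 10.1 TPM.

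The sequence upstream of these genes is shown because DKK1 and SP5 share the peak in DE and SFRP5 has its lowest value there. The 250 bases before each listed start site were taken from RefSeq (GRCh38.p14), where 7 of the 10 members matched. AXIN2, LGR5 and SFRP1 did not. The capitals mark the core of the TCF and LEF binding motif, searched on both strands as CTTTGAA together with its variants CTTTGAT and further CTTTGTA as well as CTTTGTT. The windows are chr2:170715087-170715336 on the plus strand for SP5, chr10:52314031-52314280 on the plus strand for DKK1 and chr10:97772000-97772249 on the minus strand for SFRP5, each printed in the direction of transcription.
SP5: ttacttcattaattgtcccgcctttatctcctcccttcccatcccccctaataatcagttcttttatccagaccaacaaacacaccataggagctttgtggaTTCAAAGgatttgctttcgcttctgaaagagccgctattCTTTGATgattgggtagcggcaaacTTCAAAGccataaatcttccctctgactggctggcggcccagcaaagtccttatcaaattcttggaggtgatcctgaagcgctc
DKK1: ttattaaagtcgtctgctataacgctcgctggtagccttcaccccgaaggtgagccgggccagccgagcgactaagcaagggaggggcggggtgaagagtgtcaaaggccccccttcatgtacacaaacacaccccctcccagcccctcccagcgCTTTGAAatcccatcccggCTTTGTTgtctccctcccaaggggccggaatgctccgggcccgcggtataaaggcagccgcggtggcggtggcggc
SFRP5: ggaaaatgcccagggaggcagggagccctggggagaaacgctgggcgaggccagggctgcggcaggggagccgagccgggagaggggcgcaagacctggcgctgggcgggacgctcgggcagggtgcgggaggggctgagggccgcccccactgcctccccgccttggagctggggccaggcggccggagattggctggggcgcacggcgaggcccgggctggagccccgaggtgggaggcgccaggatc

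SP5 held 3 matches, with first bases at -148, -109 and -84 from the start site, and DKK1 held 2, at -95 and -76. The windows of SFRP5, SFRP2, FRZB and LEF1 and each window listed for RNF43 held none. The LEF1 window (108166302 to 108166551) and an RNF43 window (58402722 to 58402971) lie inside the gene coordinates given above, before internal start sites. Across all 35116 upstream windows of that length in RefSeq, 12.0% held at least 1 match. A match describes the letters and not a site in use. The SFRP5 window was rich in CG dinucleotides, with 21 against a median of 11.0 over all windows. DKK1 held 18 and SP5 held 6.

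FRZB, SFRP2 and LEF1 were each highest in a batch 1 library other than DE. FRZB was at 98.4 TPM in PP2 and 156 TPM in SC-β, above the 2.32 to 15.2 TPM of batches 2 and 3. LEF1 reached 10.1 TPM in PP2 and stayed below 1 TPM in the other 13 libraries. SFRP2 was at 267 TPM in hPSC, 9.86 TPM in DE and 5.81 TPM in SC-β, and at 0.131 TPM or less elsewhere. The summed TPM of 10 mesenchyme and fibroblast markers (COL1A1, COL1A2, COL3A1, DCN, LUM, PDGFRA, PDGFRB, THY1, POSTN and TWIST1) was 1570 in PP2 and 2802 in SC-β, against 58.7 in DE and 47.4 to 258 in batches 2 and 3. Their part in the FRZB, SFRP1 and LEF1 levels of PP2 and SC-β was not tested. In hPSC this sum was 570, of which THY1 made up 342 TPM.

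The DMSO and I-BET151 libraries addressed what the inhibitor does to pancreatic progenitors in 7 days. These libraries were among those whose levels were in view when the genes were chosen, so the tests are not independent of that choice. SFRP5 was at 96.0 and 70.1 TPM in the DMSO libraries against 509 and 254 TPM with I-BET151. Both treated libraries lay above both controls, with a ratio of the means of 4.59, and the 2 treated libraries differed from each other by more than the controls did. The log2 difference was 2.12 with SE 0.45. It did not pass the threshold of the study (limma, adjusted p = 0.13, unadjusted p = 0.0051). With the replicate number as a block it passed, with SE 0.19 and limma adjusted p = 0.00618. Among all 16687 genes tested, that blocked fit called 828 higher and 1466 lower, so a call was common there. The replicate differences of DMSO and I-BET151 correlated at r = 0.675 over these genes, so same-numbered libraries deviated together. The fit with a block is still an alternative, since only 2 pairs exist and the labels give the numbers no meaning. The other values here come from fits without a block. Without I-BET151 replicate 2 the log2 difference was 2.62 and the adjusted p 0.00361, in a fit where the lone treated library is assumed to vary like the DMSO pair. Leaving out any other of the 4 libraries gave 1.62 to 2.34 with adjusted p of 0.0972 or more, lowest in difference without I-BET151 replicate 1. Without a block, only 0.21% of the 16687 genes tested passed the threshold, and 15.2% had an unadjusted p under 0.05. The study, which used DESeq2, reported many more changed genes for this comparison at the same cut-offs. A gene not called here is therefore not shown to be unchanged.

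DKK1 went the other way. The DMSO libraries held 10.5 and 11.3 TPM and the I-BET151 libraries 1.498 and 4.24 TPM, so the groups did not overlap. Its log2 difference was -1.72 with SE 0.45 and limma adjusted p = 0.18. The fit with the replicate number as a block gave SE 0.31 and limma adjusted p = 0.0241. Without I-BET151 replicate 2 the difference was -2.25 with adjusted p = 0.00681, and without replicate 1 it was -1.18 with adjusted p = 0.293. Markers of pancreatic progenitors and mesenchyme moved beside these genes. PDX1, NKX6-1 and SOX9 were all higher in I-BET151 with no overlap, with a summed TPM of 481 to 820 against 215 to 294 in DMSO. The 10 mesenchyme and fibroblast markers summed to 62.0 to 95.7 TPM in I-BET151 against 133 to 258 TPM in DMSO, with 4 lower, 1 higher and 5 overlapping, and none of the 10 was at 0 in these libraries. The part of either in the SFRP5 and DKK1 values was not tested.

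The remaining antagonists and targets overlapped between DMSO and I-BET151 or lay near 0. SFRP1 was at 5.89 and 2.39 TPM with DMSO against 11.9 and 5.38 TPM with I-BET151, a log2 difference of 0.91 and limma adjusted p = 0.491. FRZB was at 5.68 and 2.32 TPM against 6.77 and 2.79 TPM. Neither target gene that passed the filter was called. AXIN2 was at 2.85 and 3.53 TPM with DMSO against 1.85 and 3.67 TPM with I-BET151, and RNF43 at 10.1 and 4.79 TPM against 5.01 and 2.09 TPM. Between same-numbered libraries, SFRP1 and FRZB were higher and RNF43 lower with I-BET151 each time, while AXIN2 went both ways. RNF43 had a log2 difference of -0.90 with SE 0.51, and AXIN2 of -0.19 with SE 0.37. When each library was left out RNF43 ranged from -1.38 to -0.42 and SFRP1 from 0.40 to 1.42, with no call. In all, 6 of the 10 members passed the filter of 1 TPM in 2 libraries. Without a block 0 were called by limma, while 2 of the 6 (SFRP5 and DKK1) had an unadjusted p under 0.05. SFRP2, LEF1, SP5 and LGR5 stayed at 0.879 TPM or less in these 4 libraries. Counting all 10, the I-BET151 libraries lay wholly above DMSO for 2 members and wholly below for 2, beside 28.7% and 18.0% of the genes tested. These counts include SFRP2 (above) and LGR5 (below), which did not pass the filter behind those shares.

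Passages 9 and 21 of the ePPs were compared to see how steady the genes were in long culture. The ePP levels were also in view when the genes were chosen, so these tests are not independent of that choice. SFRP5 was slightly higher at passage 21 in both libraries, at 662 ± 40.6 TPM against 577 ± 13.7 TPM (SD, n = 2 each). The log2 difference of 0.20 (SE 0.08, limma adjusted p = 0.207) lay close to the median of 0.13 over all 15822 genes tested. After each library was centred on its median gene the difference was -0.01. FRZB differed by 0.29, DKK1 by 0.34 and SFRP1 by -0.18 on the log2 scale, with adjusted p between 0.276 and 0.458. The 5 target genes and SFRP2 did not pass the filter at either passage. Of the 4 members tested 0 were called by limma and 1 (SFRP5) had an unadjusted p under 0.05, beside 1.13% of all genes called and 23.0% with an unadjusted p under 0.05. Of all 10, 3 lay wholly above at passage 21 and 1 wholly below, beside 41.3% and 13.1% of the genes tested.

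**Figure D3:**
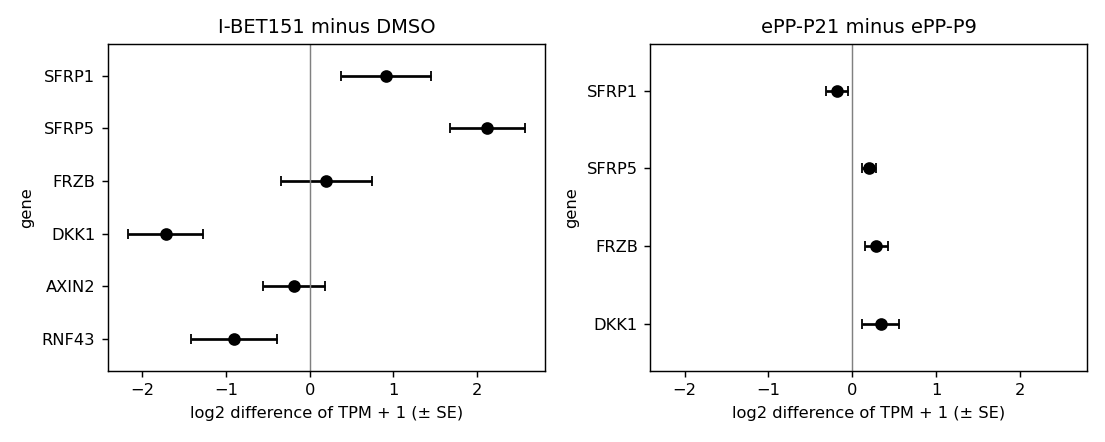
Log2 difference of TPM + 1 with its standard error for the members that passed the filter, for I-BET151 minus DMSO (6 genes) and ePP-P21 minus ePP-P9 (4 genes), on the same horizontal scale. SFRP5 at 2.12 and DKK1 at -1.72 lie farthest from 0. Neither passed the threshold of an adjusted p under 0.05 in these fits, which hold no replicate block.

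A further 88 genes of the pathway were taken as lists by role to place the members, and they were tested in all 3 comparisons. Between ePP-β and ePP, 64 were tested. Of these, 13 rose and 16 fell in ePP-β (limma, adjusted p under 0.05 and a log2 difference beyond 1). APCDD1, NOTUM, WNT4, WNT9A, ASCL2 and TBXT are among the 13 but were below 1 TPM in all 4 ePP libraries. They passed the filter only through ePP-β and could only be called higher, so their rise is a description. WNT11 and KREMEN2, also among the 13, likewise needed the ePP-β libraries to pass. Over all 18076 genes tested, 17.9% were called higher and 9.86% lower, 27.8% in all. With quantile normalization the split over all genes turned to 2592 higher and 2866 lower, from 3237 and 1783, and that of the pathway genes to 12 higher and 21 lower. The median log2 difference was -0.24 for these 64 genes and -0.03 for all genes.

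Of 18 tested genes of the receptor and R-spondin arm, 7 were lower and 1 was higher. FZD5, a Frizzled receptor, fell from 199.9 ± 25.0 TPM (SD, n = 4) in the ePPs to 18.6 ± 2.75 TPM (SD, n = 2) in ePP-β, a log2 difference of -3.36 with SE 0.10 and adjusted p = 7.8e-06. FZD7 fell from 132 ± 11.4 TPM to 17.9 ± 1.06 TPM, with adjusted p = 8.09e-06. FZD2, FZD4, FZD8, the co-receptor ROR2 and the R-spondin receptor LGR4 fell as well, by log2 differences of -1.24 to -2.09. The DKK receptor KREMEN2 rose, though it needed the ePP-β libraries to pass the filter. In batch 1, FZD5 was at 169.6 TPM in PP2 and 12.4 TPM in SC-β.

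Ligands and other antagonists moved in both directions. Of 8 ligands tested, 4 rose and 1 fell. Of the 4 that rose, WNT9A, WNT4 and WNT11 needed the ePP-β libraries to pass the filter, so their rise is a description. WNT9A rose from 0.300 ± 0.0738 TPM to 15.5 ± 1.79 TPM, a log2 difference of 3.66. WNT5A, a ligand best known for signalling without β-catenin, rose from 1.49 ± 0.604 TPM to 6.12 ± 0.966 TPM (1.54, limma adjusted p = 0.00154). WNT4 and WNT11 rose too, and WNT3 fell by 1.01, a call lost without ePP-β replicate 1 (-0.87), ePP-P9 replicate 2 (-0.99) or ePP-P21 replicate 2 (-0.94). Of 6 other antagonists tested, 3 rose and 2 fell. APCDD1 and NOTUM, among the 3, passed the filter only through ePP-β, so their rise is a description as well. APCDD1, a membrane-bound inhibitor that is itself a target gene, rose from 0.0371 ± 0.0125 TPM to 21.4 ± 2.84 TPM (log2 difference 4.42). DKK3 rose from 34.4 ± 3.66 TPM to 120.1 ± 19.4 TPM. NOTUM, an enzyme that inactivates Wnt ligands, rose by 1.70. IGFBP4 fell from 29.3 ± 1.05 TPM to 11.8 ± 1.55 TPM, and SFRP4 fell by 1.04 on the log2 scale. The SFRP4 call was lost without ePP-β replicate 2 (-0.93), ePP-P9 replicate 2 (-0.94) or ePP-P21 replicate 1 (-0.98).

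Of 12 genes of the cytoplasmic relay, APC rose by 1.65, while DVL2 and AXIN1 fell by 1.36 and 1.06 on the log2 scale. CTNNB1, which encodes β-catenin, ranged from 223 to 316 TPM over the 6 libraries, and its log2 difference of -0.30 stayed under the threshold in size. Of 11 nuclear genes, TLE2 rose by 1.46 and TCF7L2 and TCF7L1 fell by 2.29 and 1.20. TCF7L2 varied from 16.4 to 49.1 TPM within the ePPs. Without ePP-β replicate 1 the TCF7L1 difference was -0.88 and its call was lost. AXIN1 hardly moved there, staying within the range of -1.13 to -1.0 seen when each library was left out, and fell just short of the threshold of 1. Of 7 other target genes tested, ASCL2 (log2 difference 2.95), TBXT (1.68) and TNFRSF19 (1.45) rose, and MYC (-2.85) and NKD2 (-1.52) fell. ASCL2 and TBXT passed the filter only through ePP-β, so their rise is a description. ASCL2 reached 6.44 and 7.11 TPM in ePP-β, while no ePP library exceeded 0.0104 TPM. The 2 ligand export genes PORCN and WLS were not called. APCDD1, NOTUM, WNT4, WNT9A, ASCL2 and TBXT were not tested without either ePP-β library, since only 1 library then reached 1 TPM.

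**Figure D4:**
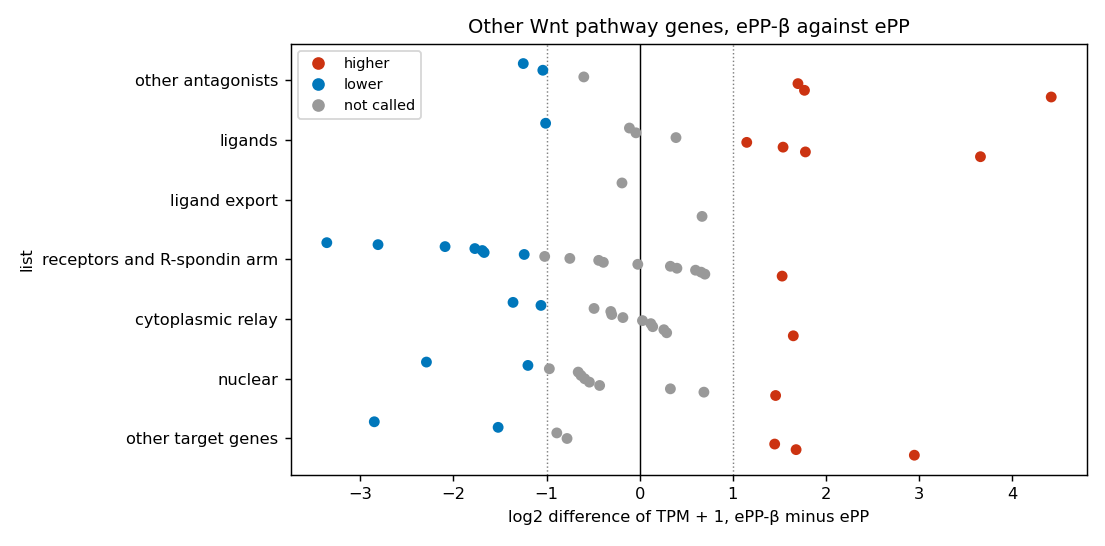
Log2 difference of TPM + 1 between ePP-β and ePP for the 64 tested genes of the pathway other than the 10 members, 1 point per gene, in rows by role. Red and blue mark genes called higher (13) and lower (16), and grey marks genes not called. Dotted lines stand at log2 differences of -1 and 1. APCDD1, NOTUM, WNT4, WNT9A, ASCL2 and TBXT passed the filter only through ePP-β and could only be called higher.

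In I-BET151 against DMSO, 57 of the 88 other genes were tested and limma called 0, while 6 had an unadjusted p under 0.05. Over all genes tested, 0.21% were called and 15.2% had an unadjusted p under 0.05. With the replicate number as a block, DKK3, SOSTDC1, WNT2, FZD7, FZD9 and TLE2 passed. That blocked fit called 828 genes higher and 1466 lower among all 16687 tested. The ligand WNT2 was at 11.5 TPM in both DMSO libraries and at 1.96 and 4.17 TPM in I-BET151 (log2 difference -1.67, adjusted p = 0.152). FZD7 was higher with I-BET151 in each same-numbered pair. It varied between replicates, from 112 to 43.1 TPM in DMSO and from 307 to 96.9 TPM in I-BET151 (1.30, limma adjusted p = 0.471). Without I-BET151 replicate 2 both passed, with limma adjusted p of 0.0135 for WNT2 and 0.0316 for FZD7. Without I-BET151 replicate 1 the differences were -1.27 for WNT2 and 0.47 for FZD7, with adjusted p of 0.241 and 0.807. The genes with the highest level in the other lists were IGFBP4, WLS, CTNNB1, PYGO2 and CCND1, with log2 differences between -0.30 and 0.62 and adjusted p of 0.513 or more. Between the passages, 55 were tested, limma called 0 and 8 had an unadjusted p under 0.05. Over all genes tested there, 1.13% were called and 23.0% had an unadjusted p under 0.05. FZD5 was at 180.0 ± 5.27 TPM at passage 9 and 219.7 ± 16.7 TPM at passage 21 (log2 difference 0.28, adjusted p = 0.135), and DKK3, WNT8B, WLS, CTNNB1, PYGO2 and CCND1 had log2 differences between -0.09 and 0.35 with adjusted p of 0.309 or more.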

How the data were processed

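Total RNA from 14 samples in 9 groups, placed by their titles, was sequenced as paired ends. The authors ran HISAT2 2.1.0 against GRCh38 and then StringTie, and added up transcripts by gene. What they deposited is TPM per gene, and no scaling between libraries is stated. Annotation release and strand use are not given in the sources used here. TPM keeps no read depth, so no counting interval is given, and the number of libraries, 1 or 2 a group, limits the precision. All 37 mitochondrial genes were at 0 in every library, so an exact 0 may be a value that was not estimated and is written as listed at 0.

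Of 60624 identifiers, 60370 matched GENCODE release 44, which gave symbols and positions. A count test cannot take TPM values. Genes that reached 1 TPM in 2 or more libraries of a fit were tested on log2(TPM + 1) with limma 3.58.1 in R 4.3.3 (trended eBayes, two-sided). Each fit held only the groups compared, within 1 batch. For ePP, the means of both passages were averaged. Calls used a Benjamini-Hochberg adjusted p under 0.05 over all tested genes and a log2 difference beyond 1 in size, as in the study. A log2 difference on this scale understates the change of low genes. ± is the SD over libraries. The members and lists were chosen with earlier results of these data known. From each list other than the members, the text names up to 2 called genes per direction with the largest difference and 5 TPM or more on average in the group where it is higher, or the gene with the highest mean where none was called. Other genes named in a count (such as WNT4, WNT11, WNT3, NOTUM, SFRP4, KREMEN2, TBXT, FZD2, FZD4, FZD8, ROR2, LGR4 and PORCN) were chosen after their values were seen. The code was tested on simulated data. As alternatives, the pseudocount was set to 0.1 or 0.01 and the filter to 5 TPM or dropped, besides quantile normalization, median centring, a replicate block and leaving out each library.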

Additional observations from a re-analysis of the deposited data

How the results depend on the processing

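The count of pathway genes called kept within 1.5 times its value under every alternative for ePP-β against ePP (29, with 21 to 29 when each library was left out) and for ePP-P21 against ePP-P9 (0). For I-BET151 against DMSO the count of 0 was 8 with the replicate number as a block (4 higher and 4 lower, SFRP5 with adjusted p = 0.00618 and DKK1 with 0.0241 among them, limma), and 0 to 5 when each library was left out, with 5 without I-BET151 replicate 2. The replicate differences of DMSO and I-BET151 correlated at r = 0.675 across genes, but only 2 pairs exist and the labels give the numbers no meaning, so the pairing was not taken as part of the design. In the ePP and ePP-β groups r lay between -0.00933 and 0.0439, and the block left the counts of 29 and 0 as they were. Over all genes, I-BET151 against DMSO gave 35 calls, 0 with either pseudocount or no filter, and 828 higher and 1466 lower with the block. Quantile normalization gave 2592 higher and 2866 lower genes in ePP-β against 3237 and 1783 as deposited, and moved the median log2 difference from -0.03 to -0.19. Between the passages median centring moved it from 0.13 to -0.07, and calls from 178 to 0.

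No called value changed sign. Of uncalled differences between the passages, median centring turned SFRP5 (-0.01), WLS (-0.17), CTNNB1 (-0.03) and PYGO2 (-0.12), and quantile normalization turned WLS (-0.05) and PYGO2 (-0.04). Leaving out single libraries turned DKK3 (-0.26 to 0.08), WLS (-0.06 to 0.13) and CCND1 (-0.14 to 0.04) there, and FRZB (-0.31 to 0.72), AXIN2 (-0.55 to 0.16), IGFBP4 (-1.20 to 0.61) and WLS (-0.04 to 0.59) in I-BET151 against DMSO. A pseudocount of 0.01 moved the ePP-β difference of AXIN2 from 1.82 to 2.98, of RNF43 from 1.66 to 2.68 and of DKK1 from -1.40 to -2.39. A pseudocount of 1 understates such differences, since a group mean lay below 1 TPM for each of these genes. Unknown depth limits every value below about 1 TPM.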

Other observations

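CER1 and DKK4, further secreted inhibitors, were abundant in the DE library and nearly absent later. CER1, an inhibitor of Nodal and BMP ligands, was at 238 TPM in hPSC and 8009 TPM in DE, and at 1.07 TPM or less in the other 12 libraries. DKK4, a relative of DKK1, was listed at 0 in hPSC, was at 316 TPM in DE and was at 1.69 TPM or less elsewhere. NOTUM was at 12.2 TPM in DE and APCDD1 at 8.95 TPM, and both also stood above 1 TPM in PP2, ePP-β and SC-β while staying below 0.0600 TPM in the ePPs. The DE stage has 1 library, so these levels have no replicate check.

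The R-spondins, ligands of the LGR receptors, were measured in some batch 1 libraries, mainly PP2 and SC-β, but hardly in batches 2 and 3. RSPO4 was at 6.28 TPM in hPSC, 3.77 TPM in DE, 19.3 TPM in PP2 and 1.40 TPM in SC-β. RSPO1 was at 4.76 TPM in PP2 and RSPO2 at 3.86 TPM in SC-β. RSPO3 was at 2.41 TPM in PP2 and 4.66 TPM in SC-β. In hPSC and DE, RSPO1, RSPO2 and RSPO3 were at 0.0581 TPM or less. All 4 R-spondins stayed below 0.1 TPM in the 10 libraries of batches 2 and 3. The receptor LGR4 was at 135 to 179 TPM in the ePPs. The summed mesenchyme and fibroblast markers were highest in PP2 and SC-β as well, and their part in the R-spondin levels was not tested.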
